A study of Mus musculus with 10 samples.

Results

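The genes described here are 31 genes of protein folding, degradation and stress signalling in the endoplasmic reticulum (ER), taken by symbol from a table of 24475 genes. Every symbol was found, and all 31 genes passed the filter on low values. The libraries came from pancreatic islets of C57BL/6 mice, the clusters of cells that secrete insulin, glucagon and other hormones. Of the 10 libraries, 5 (numbered 1 to 5) belong to mice treated with REGN1193, a glucagon receptor (GCGR) blocking antibody, and 5 (numbered 6 to 10) to mice treated with an isotype control antibody. No genotype other than the strain is given, and the labels give no dose, duration, age or sex. Whether every library is a separate animal is not stated, so the tests weigh differences against the spread of these libraries, which may be technical.

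The ER is where secreted proteins such as insulin and glucagon enter the secretory pathway, fold and receive their disulfide bonds. When unfolded proteins accumulate, the sensors IRE1 (gene Ern1), ATF6 and PERK (gene Eif2ak3) start the unfolded protein response, which lowers protein synthesis and raises chaperones and degradation factors. IRE1 acts through splicing of the Xbp1 transcript, which a gene-level table cannot show, and XBP1 and cleaved ATF6 then bind ER stress response elements in chaperone promoters. Beta cells carry a heavy insulin load and depend on this machinery.

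The promoters are shown because an ER stress response element is what several of these genes have in common beyond their function. RefSeq promoters (GRCm38.p6, 250 bases before to 50 bases after the start site) were matched for 27 of the 31 genes. The ERSE motif was searched on both strands as CCAAT and CCACG separated by 9 free bases, and 10 of the 27 promoters (37.0%) held it. Among all 32851 promoters in the table, 39 (0.119%) held it, and among 114 promoters of 99 other genes of ER function it was found in 0. The related ERSE-II motif, ATTGG and CCACG separated by 1 free base, stood in 2 of the 27 promoters (7.41%), Herpud1 and Dnajb11, in 1 of the 114 promoters of other ER genes (0.877%) and in 12 of all promoters (0.0365%). The UPRE motif, TGACGTGG, stood in 0 of the 27, in 9 of the 114 promoters of other ER genes (7.89%) and in 222 of all promoters (0.676%). None of the 27 promoters held both ERSE and ERSE-II. The ERSE-II of Dnajb11 lies 7 to 17 bases past its start site and is not printed. These elements are known from chaperone promoters, and the 31 genes were chosen for ER folding and stress functions. A high ERSE share was therefore built into that choice, and the shares are a description only. The 0 of 114 depends on the same choice, since those genes were listed outside the 31. A match is a run of letters and not a shown binding site. Only exact matches were counted, so an element that differs in a fixed letter would be missed.

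The matches are written in the direction of the motif with 10 flanking bases on each side, and capitals mark the fixed letters of the motif.
Hspa5 (chr2:34772015-34772053, + strand): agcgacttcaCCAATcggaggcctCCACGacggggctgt
Dnajc3 (chr14:118937817-118937855, + strand): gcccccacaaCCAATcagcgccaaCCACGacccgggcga
Hsp90b1, distal (chr10:86705628-86705666, - strand): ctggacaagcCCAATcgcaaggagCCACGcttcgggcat
Hsp90b1, proximal (chr10:86705523-86705561, + strand): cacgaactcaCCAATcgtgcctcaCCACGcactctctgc
Calr (chr8:84847065-84847103, + strand): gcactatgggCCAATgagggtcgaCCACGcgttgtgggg
Canx (chr11:50325790-50325828, - strand): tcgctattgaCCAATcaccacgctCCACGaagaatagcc
Pdia6 (chr12:17266481-17266519, + strand): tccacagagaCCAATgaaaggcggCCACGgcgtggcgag
Ero1lb (chr13:12565672-12565710, - strand): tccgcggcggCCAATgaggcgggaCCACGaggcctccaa
Creld2 (chr15:88819510-88819548, - strand): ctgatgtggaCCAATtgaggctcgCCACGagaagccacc
Syvn1 (chr19:6046522-6046560, + strand): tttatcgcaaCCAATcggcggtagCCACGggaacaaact
Derl3 (chr10:75893232-75893270, - strand): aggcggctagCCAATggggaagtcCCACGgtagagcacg
Herpud1, ERSE-II (chr8:94386367-94386397, + strand): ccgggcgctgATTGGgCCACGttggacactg

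Hsp90b1 was the one gene among the 27 searched with more than 1 exact ERSE match, and its matches lie on opposite strands. Its 250 bases before the start site are shown with both elements in capitals, the proximal one as its reverse complement (CGTGG before ATTGG), beside those of Hspa5, the most abundant of the 31 genes.
Hspa5 (chr2:34771840-34772089, + strand): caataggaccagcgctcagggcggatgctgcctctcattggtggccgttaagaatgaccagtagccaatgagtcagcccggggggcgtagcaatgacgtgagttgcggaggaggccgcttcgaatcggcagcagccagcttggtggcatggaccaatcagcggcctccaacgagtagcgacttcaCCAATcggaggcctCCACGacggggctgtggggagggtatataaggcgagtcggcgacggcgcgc
Hsp90b1 (chr10:86705445-86705694, - strand): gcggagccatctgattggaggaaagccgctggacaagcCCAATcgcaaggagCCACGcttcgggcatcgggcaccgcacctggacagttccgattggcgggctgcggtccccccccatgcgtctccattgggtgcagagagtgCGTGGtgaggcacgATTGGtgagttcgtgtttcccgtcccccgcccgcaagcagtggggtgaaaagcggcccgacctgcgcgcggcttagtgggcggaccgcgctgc

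**Figure D1:**
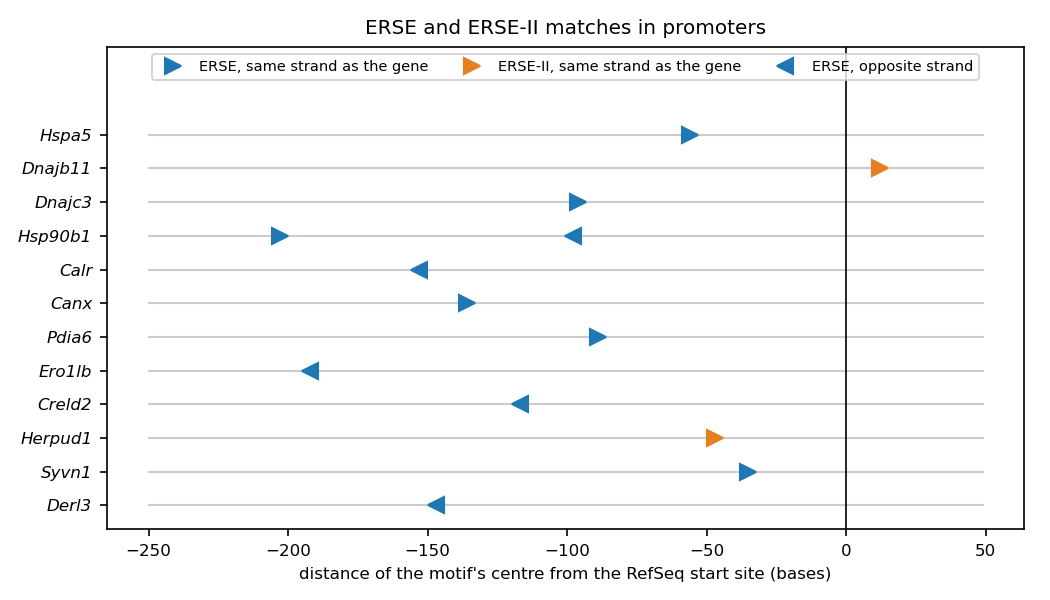
Each row is a gene, the horizontal axis gives the distance of a motif's centre from the RefSeq start site in bases, and arrowheads point in the direction of the motif (blue ERSE, orange ERSE-II). The ERSE matches of 10 genes all lie before the start site, and the ERSE-II of Dnajb11 lies after it.

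RPKM values (reads per kilobase of transcript, scaled to the reads of each library) were compared as log2(RPKM + 0.5). The test was limma over the 13450 genes that averaged 0.5 RPKM or more, with Benjamini-Hochberg adjustment over all of them and a threshold of 0.05. Depth estimated from the steps of the low values was 14400000 to 17800000 reads in antibody libraries and 12200000 to 14700000 reads in isotype libraries. The lowest value among the 31 genes, Derl3 at 4.83 RPKM in isotype replicate 6, thus rests on about 60.4 reads per kilobase. Alpha cell markers were higher with the antibody (7 of 9 called, summed 55154 to 84263 RPKM in antibody libraries and 10184 to 18173 RPKM in isotype libraries). Gcg alone made up most of these sums, at 50503 to 76928 RPKM in antibody libraries and 9513 to 17038 RPKM in isotype libraries. Delta cell and pancreatic polypeptide markers had median log2 fold changes of 0.70 and 0.72, with 0 called in either list. Both insulin genes together made up 24.8% to 37.8% of the summed RPKM in antibody libraries and 36.7% to 49.9% in isotype libraries. Acinar enzyme transcripts were present in every library, at a summed 4539 to 14676 RPKM in antibody libraries and 3484 to 19822 RPKM in isotype libraries. Of the 20 acinar markers 0 were called, and their median log2 fold change was -0.57. In whole islets, fewer cells of a type and less RNA per cell cannot be told apart.

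None of the 31 ER genes passed the threshold between antibody and isotype libraries, in either direction. Over all 13450 tested genes limma called 53 higher (0.394%) and 2 lower (0.0149%), 0.409% in all, so a count of 0 of 31 is near that background. At an unadjusted limma p under 0.05, 0 of the 31 were higher, where the share over all tested genes was 2.84%. At the same limit 1 of the 31, Eif2ak3, was lower, where the share over all tested genes was 4.18%. Over the 31 genes the fold changes had a median of -0.09 log2, beside -0.07 for all tested genes, with 25 of 31 (80.6%) below 0, beside 66.5% of all tested genes. That count depended on scaling and on single libraries: it was 16 of 31 with median centring, 17 without antibody replicate 5, 15 without isotype replicate 10, and 11 without both. With the acinar covariate it was 27. It was 28 without antibody replicate 1, without isotype replicate 6, or with scaling that leaves out Ins1, Ins2 and Gcg. The share of all tested genes below 0 was not counted under these settings, so 66.5% is no background for them. With median centring the median of the 31 genes was -0.01 log2, beside 0.01 for all tested genes. Without antibody replicate 5 and isotype replicate 10 it was 0.10, beside -0.03. The groups overlapped in all 31 genes, while 1.99% of all tested genes had groups that did not. The 95% intervals reached a median of 0.43 log2 to either side of the estimate, and the outermost bounds were -1.06 for Sdf2l1 and 0.99 for Derl3.

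**Figure D2:**
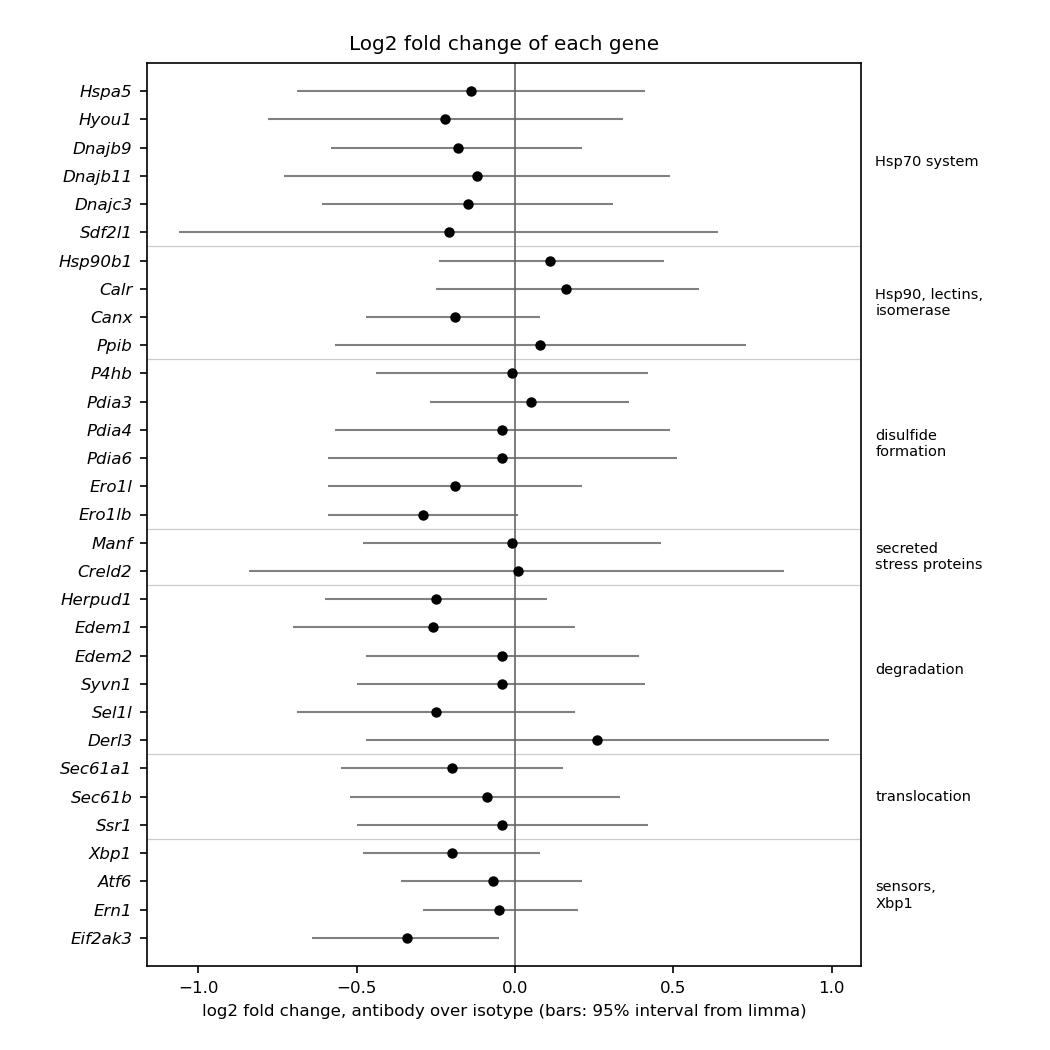
Points give the log2 fold change of each gene, antibody over isotype (n = 5 libraries each), and bars its 95% interval from limma; genes run down the page by role. The interval of 30 genes crosses 0, and that of Eif2ak3 runs from -0.64 to -0.05 with an adjusted p of 0.63 over all genes.

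The Hsp70 system folds newly made chains: Hspa5 encodes BiP, the ER Hsp70, Hyou1 its large nucleotide exchange relative, and Dnajb9, Dnajb11 and Dnajc3 its J-domain partners. Hspa5 (chromosome 2, 34772090 to 34776529) stood at 1355, 820.4, 865, 558 and 621 RPKM in antibody libraries 1 to 5, against 668, 817, 788, 942 and 1339 RPKM in isotype libraries 6 to 10. The highest antibody and the highest isotype library were almost level, and the other libraries of both groups intermingled below them. The mean was 844 ± 314 RPKM in antibody libraries and 911 ± 258 RPKM in isotype libraries (SD, n = 5 each). On the log2 scale this is -0.14 (SE 0.25), with a limma adjusted p of 0.944. All 6 genes of the system had log2 fold changes below 0, between -0.22 for Hyou1 and -0.12 for Dnajb11, with limma adjusted p of at least 0.88. Hyou1 averaged 208 ± 65.4 RPKM in antibody libraries and 241 ± 66.4 RPKM in isotype libraries, and Dnajb9 247 ± 51.3 RPKM in antibody libraries and 279 ± 49.6 RPKM in isotype libraries (SD, n = 5 each). Without antibody replicate 5 and isotype replicate 10, 5 of the 6 log2 fold changes were above 0: Hspa5 0.10, Hyou1 0.03, Dnajb11 0.18, Dnajc3 0.08 and Sdf2l1 0.28.

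Sdf2l1, a partner of the J-domain protein Dnajb11, had the widest interval of the 6. It stood at 189, 119, 149, 82.8 and 43.3 RPKM in the antibody libraries, against 60.3, 129, 118, 139 and 197 RPKM in the isotype libraries. Its antibody values spanned a 4.36-fold range and its isotype values a 3.27-fold range, far beyond the difference between the means of 117 RPKM in antibody and 129 RPKM in isotype libraries (log2 fold change -0.21, SE 0.39, limma adjusted p = 0.945). This fold change was 0.10 without antibody replicate 5 and 0.06 with array weights.

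Folds above 0 were seen in 3 of the 4 genes of the Hsp90, lectin and prolyl isomerase group. Hsp90b1, which encodes the ER Hsp90 GRP94, stood at 938, 764, 773, 581 and 738 RPKM in antibody libraries, against 579, 658, 693, 661 and 922 RPKM in isotype libraries. In 4 of 5 antibody libraries it lay above the isotype mean of 703 RPKM, yet isotype replicate 10 was higher than every antibody library but 1. The log2 fold change, 0.11 with an SE of 0.16, had a limma adjusted p of 0.924. Calr, the soluble lectin chaperone calreticulin, stood at 825, 756, 836, 550.1 and 629.8 RPKM in antibody libraries. Its isotype values were 412, 713, 676, 686 and 749.6 RPKM, of which that of isotype replicate 6 stood apart below the others. The log2 fold change of Calr, 0.16 with an SE of 0.19, had a limma adjusted p of 0.902. Without isotype replicate 6 the log2 fold change was 0.01. Canx, its membrane-bound relative calnexin, averaged 180.2 ± 23.1 RPKM in antibody libraries and 206 ± 27.5 RPKM in isotype libraries (SD, n = 5 each; -0.19 on the log2 scale, SE 0.13). Ppib, the prolyl isomerase cyclophilin B, ran from 46.7 to 129 RPKM in antibody libraries and from 41.4 to 113 RPKM in isotype libraries. Its log2 fold change of 0.08 (SE 0.30) was -0.11 with the acinar covariate, without antibody replicate 1 or without isotype replicate 6, and -0.01 without antibody replicate 2, so the count of 3 genes above 0 was not stable.

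**Figure D3:**
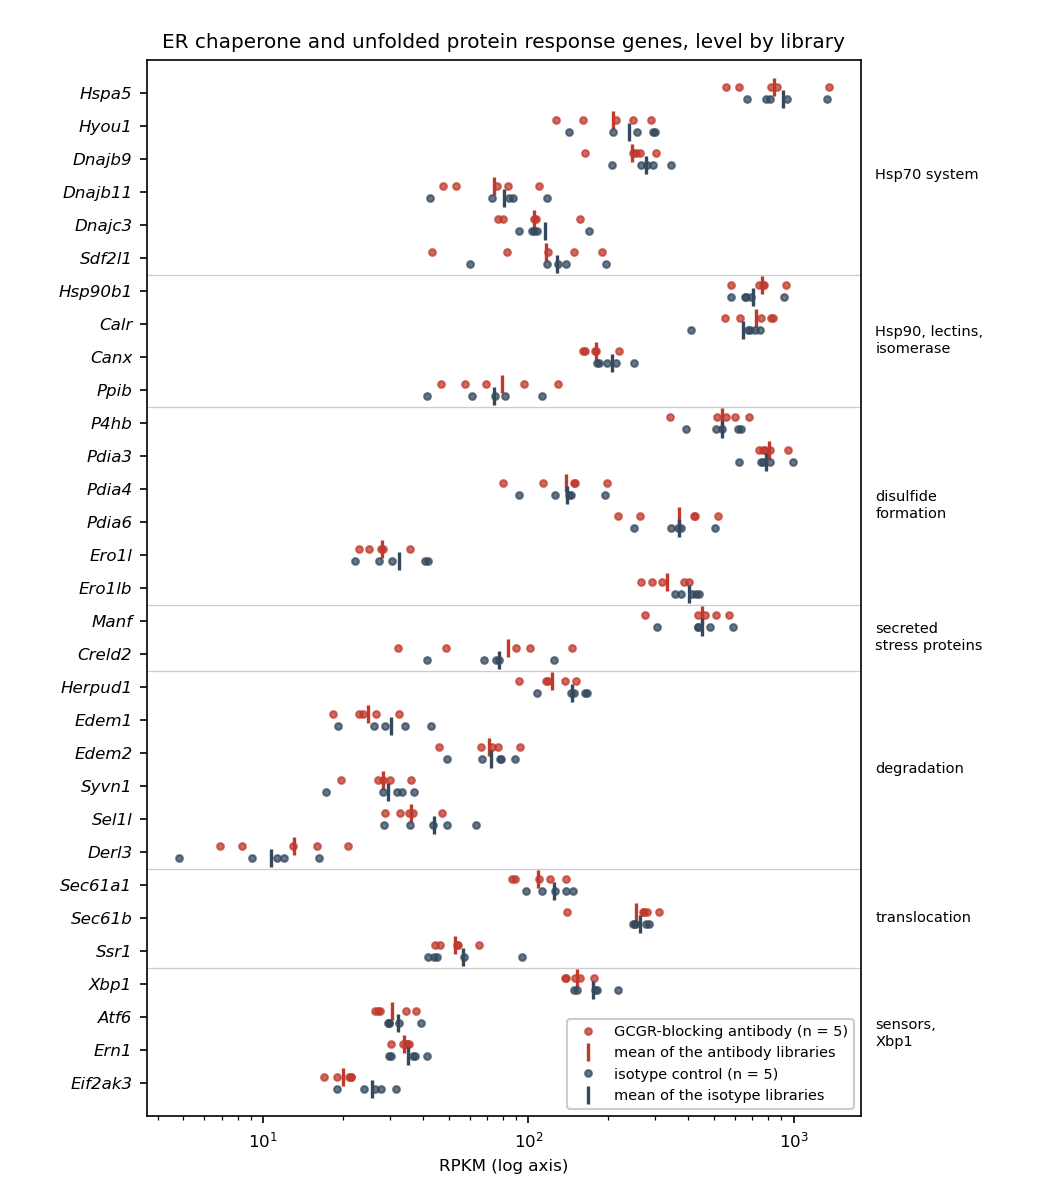
Each point is 1 library, the horizontal axis is RPKM on a log axis, vertical ticks are group means, and antibody libraries (red) are drawn above isotype libraries (dark) for each gene. Levels run from a mean of 877 RPKM for Hspa5 to 11.8 RPKM for Derl3, and the groups overlap in every gene.

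Disulfide bonds are made by protein disulfide isomerases (P4hb, Pdia3, Pdia4, Pdia6), which are re-oxidised by the Ero1 oxidases. Pdia4 averaged 138 ± 44.1 RPKM in antibody libraries and 139.8 ± 37.1 RPKM in isotype libraries, and Pdia6 369 ± 125 RPKM in antibody libraries and 369 ± 90.7 RPKM in isotype libraries (SD, n = 5 each). The 4 isomerases had log2 fold changes between -0.04 and 0.05. P4hb averaged 539 ± 126 RPKM in antibody libraries and 538 ± 95.7 RPKM in isotype libraries (SD, n = 5 each; 95% interval of the log2 fold change -0.44 to 0.42). Pdia3, which works with calnexin and calreticulin, averaged 810.3 ± 81.8 RPKM in antibody libraries and 790.3 ± 136 RPKM in isotype libraries (95% interval -0.27 to 0.36).

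Ero1lb, the oxidase that is abundant in the endocrine pancreas, had the lowest p of the disulfide genes. It stood at 402, 267, 318, 386 and 292 RPKM in antibody libraries, against 439, 357, 414, 376 and 429 RPKM in isotype libraries. All 5 antibody libraries lay below the isotype mean of 403 RPKM, although antibody replicates 1 and 4 exceeded isotype replicates 7 and 9. The log2 fold change, -0.29 with an SE of 0.14, had a limma adjusted p of 0.725, and the two-sided exact permutation p over all 252 assignments of the libraries was 0.0635. Beta cell markers also had lower values: the median log2 fold change over 11 genes was -0.43, with 0 called, at a summed 199303 to 356573 RPKM in antibody libraries and 298778 to 472822 RPKM in isotype libraries. Their part in the value of Ero1lb was not tested. The widely expressed oxidase gene Ero1l stood lower per length, at 28.0 ± 4.90 RPKM in antibody libraries and 32.5 ± 8.54 RPKM in isotype libraries (SD, n = 5 each; log2 fold change -0.19, SE 0.18).

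Manf and Creld2 encode small secreted proteins that are induced by ER stress. Manf averaged 451 ± 111 RPKM in antibody libraries and 451 ± 103 RPKM in isotype libraries (SD, n = 5 each). Creld2 stood at 146, 89.9, 101, 49.1 and 32.3 RPKM in antibody libraries, against 41.4, 77.3, 67.8, 75.3 and 125 RPKM in isotype libraries. Antibody replicate 1 was the highest of the 10 libraries and antibody replicate 5 the lowest, so the antibody group alone spanned the whole range. The log2 fold change was 0.01 with a 95% interval of -0.84 to 0.85.

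Misfolded proteins leave the ER through a channel built around the ubiquitin ligase Syvn1 and its partner Sel1l, with Herpud1 and Derl3 in the complex and the mannosidase-like proteins Edem1 and Edem2 marking glycoproteins for removal. Of these 6 genes, 5 had log2 fold changes below 0, between -0.26 for Edem1 and -0.04 for Edem2 and Syvn1; with median centring those of Edem2 and Syvn1 were 0.04 and 0.03. Edem1 averaged 24.8 ± 5.16 RPKM in antibody libraries and 30.2 ± 8.86 RPKM in isotype libraries, and Sel1l 36.2 ± 6.97 RPKM in antibody libraries and 44.1 ± 13.3 RPKM in isotype libraries (SD, n = 5 each). Herpud1 stood at 138, 119, 151, 116 and 91.8 RPKM in antibody libraries, against 108, 164, 145, 166 and 149 RPKM in isotype libraries. In 4 of 5 antibody libraries it was below the isotype mean of 146 RPKM (log2 fold change -0.25, SE 0.16, limma adjusted p = 0.817). Derl3, the derlin typical of heavily secreting cells, stood at 20.9, 13.0, 16.0, 6.85 and 8.29 RPKM in antibody libraries. Its isotype values were 4.83, 12.0, 11.3, 9.04 and 16.2 RPKM. Its log2 fold change of 0.26 with an SE of 0.34 (limma adjusted p = 0.912) is smaller than its within-group SD of 0.62 log2. It rested on single libraries, with 0.02 without isotype replicate 6, 0.07 without antibody replicate 1 and 0.45 without antibody replicate 4.

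The translocation genes Sec61a1 and Sec61b encode subunits of the channel through which chains enter the ER, and Ssr1 a subunit of the translocon-associated complex. Sec61b was at 140.1 RPKM in antibody replicate 5 and between 270.1 and 312 RPKM in the other antibody libraries, against 247 to 286 RPKM in isotype libraries. Ssr1 was at 94.2 RPKM in isotype replicate 10 and between 41.9 and 57.3 RPKM in the other isotype libraries, against 44.4 to 65.0 RPKM in antibody libraries. By Dixon's criterion, used further below, the Sec61b library stood apart from its own group, while the Ssr1 library fell just short of the limit. The log2 fold changes were -0.09 for Sec61b and -0.04 for Ssr1 (SE 0.19 and 0.21).

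Of the stress sensors and Xbp1, Eif2ak3 had the lowest p of all 31 genes. PERK, its product, phosphorylates the initiation factor eIF2 alpha and so slows translation. Eif2ak3 (chromosome 6, 70844484 to 70905241) stood at 21.4, 21.0, 21.5, 17.0 and 18.9 RPKM in antibody libraries, against 18.9, 26.4, 24.0, 27.7 and 31.6 RPKM in isotype libraries. All antibody libraries lay below 4 of the 5 isotype libraries, and isotype replicate 6 lay among the antibody values. The mean was 20.0 ± 1.98 RPKM in antibody libraries and 25.7 ± 4.68 RPKM in isotype libraries (SD, n = 5 each). The log2 fold change of -0.34 (SE 0.14, unadjusted p = 0.0269 from limma) missed the threshold after adjustment (limma adjusted p = 0.63), and the exact permutation p was 0.0397. With 1 library left out its log2 fold change ran from -0.45 without isotype replicate 6 to -0.27 without isotype replicate 10.

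The other sensors had intervals that span 0. Ern1 stood at 34.9, 33.6, 34.7, 35.4 and 30.4 RPKM in antibody libraries, against 29.8, 36.7, 30.4, 37.5 and 41.6 RPKM in isotype libraries (95% interval of the log2 fold change -0.29 to 0.20). Atf6 averaged 30.7 ± 5.08 RPKM in antibody libraries and 32.1 ± 4.20 RPKM in isotype libraries (SD, n = 5 each; 95% interval -0.36 to 0.21). Xbp1, the transcription factor gene downstream of IRE1, stood at 177, 139, 150.4, 157 and 137 RPKM in antibody libraries, against 178, 148, 152, 182 and 218 RPKM in isotype libraries. Its groups overlapped, with a log2 fold change of -0.20 with an SE of 0.13 (limma adjusted p = 0.832).

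The larger differences ran between libraries of the same group and took in most of the 31 genes at once. Antibody replicate 1 was the highest of its group in 24 of 31 genes (77.4%), beside 22.7% of all tested genes. Isotype replicate 10 was the highest of its group in 26 of 31 (83.9%), beside 39.1% of all tested genes. Isotype replicate 6 was the lowest of its group in 27 of 31 (87.1%, beside 34.7%), and antibody replicates 5 and 4 were the lowest of theirs in 17 and 13 (54.8% and 41.9%, beside 35.8% and 24.6%). The genes share these libraries and are not independent of each other, so the counts are a description. The summed RPKM of the 31 genes was 9142, 7091, 7554, 5693 and 5687 in antibody libraries, against 5475, 7065, 6926, 7444 and 9249 in isotype libraries. The highest sums, antibody replicate 1 and isotype replicate 10, were almost level, as were the lowest of each group. The mean was 7033 ± 1443 RPKM in antibody libraries and 7232 ± 1353 RPKM in isotype libraries (SD, n = 5 each).

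**Figure D4:**
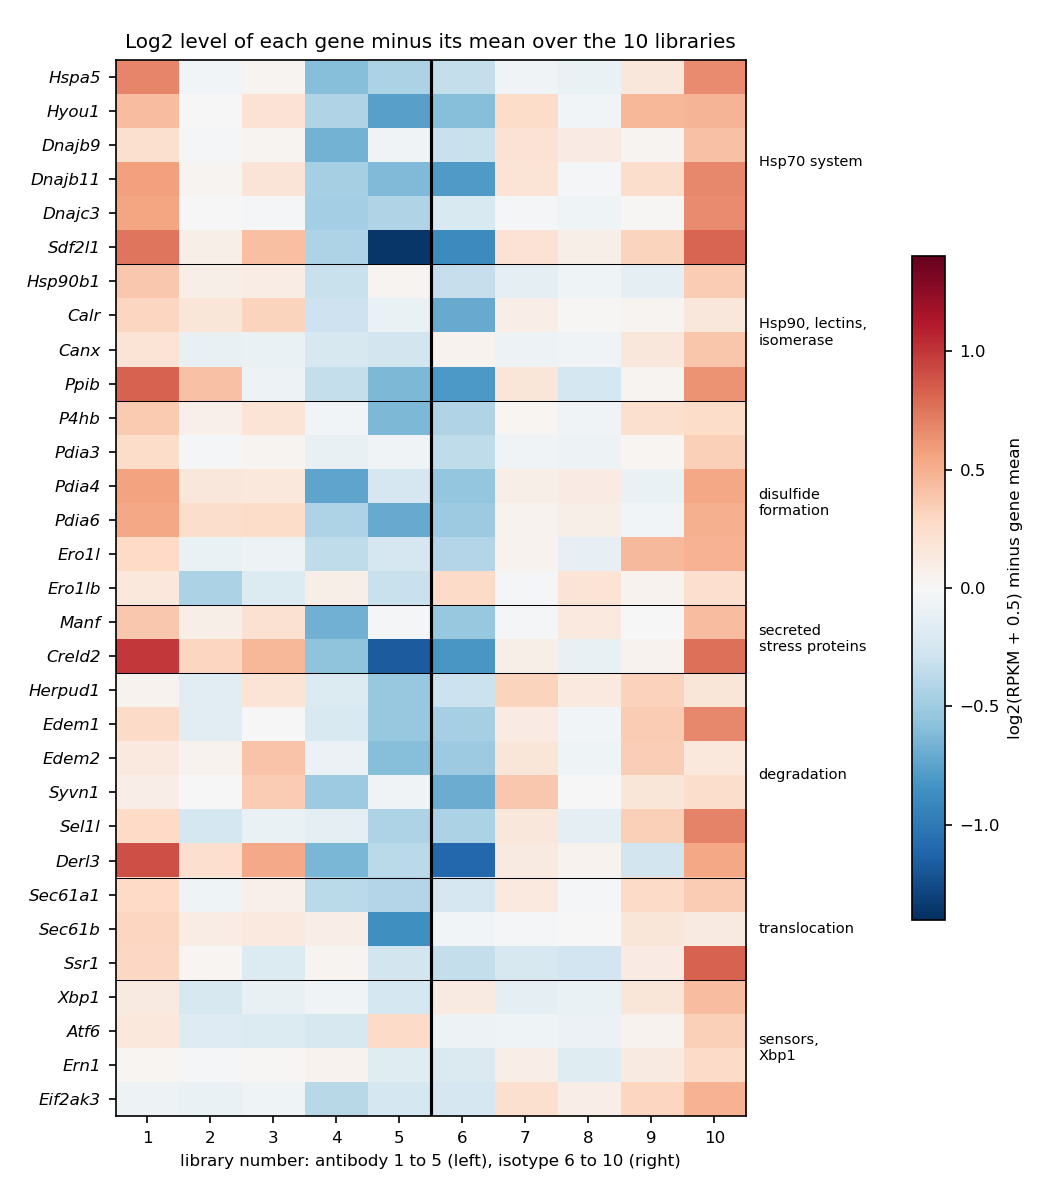
Rows are genes by role, columns are libraries (antibody left, isotype right), and colour gives log2(RPKM + 0.5) minus the gene's mean over the 10 libraries, from -1.36 to 0.99. Antibody library 1 and isotype library 10 are mostly red and libraries 4, 5 and 6 mostly blue, while the sensor rows at the bottom are paler.

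Other features of these libraries were set beside that order. Antibody replicate 1 and isotype replicate 10, the libraries with the highest levels, had acinar sums of 4539 and 12818 RPKM and depths of 16800000 and 12800000 reads. The insulin share was 32.6% in antibody replicate 1 and 36.7% in isotype replicate 10, the lowest isotype share. Isotype replicate 6, with the lowest sum of the 31 genes, had an insulin share of 49.9%, the highest of the 10 libraries, and an acinar sum of 13771 RPKM. Over the isotype libraries 6 to 10 the insulin share was 49.9%, 45.6%, 46.0%, 44.8% and 36.7%, in exactly the opposite order to the sum of the 31 genes. Over the antibody libraries 1 to 5 it was 32.6%, 32.5%, 37.4%, 37.8% and 24.8%, and antibody replicate 5 had both the lowest share and the lowest sum. Antibody replicate 5 had an acinar sum of 14676 RPKM. The insulin share and the levels of the 31 genes are parts of the same total, and the part of insulin share, acinar level and depth in the order of the 31 genes was not tested. Relative to insulin, the 31 genes together gave 1.85 to 3.86 RPKM per 100 RPKM of insulin transcripts in antibody libraries and 1.27 to 3.55 in isotype libraries, ranges that overlap. The mean of this ratio was higher in antibody libraries, at 2.79 ± 0.759, against 2.11 ± 0.867 in isotype libraries (SD, n = 5 each). That difference was not tested.

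The spread between libraries ranged widely over the 31 genes. The within-group SD had a median of 0.35 log2 over the 31 genes, beside 0.25 over all tested genes, and 23 of the 31 lay above 0.25. It was widest in Sdf2l1 and Creld2 (0.73 each), Derl3 (0.62), Ppib (0.56) and Dnajb11 (0.51). It was narrowest in Ern1 (0.16), Canx (0.18), Xbp1 (0.19), and Atf6, Pdia3 and Ero1lb (0.20 each). By role, the median was 0.55 for the secreted stress proteins (2 genes), 0.45 for the Hsp70 system, 0.36 for degradation and 0.33 for translocation. It was 0.32 for disulfide formation, 0.28 for the Hsp90, lectin and prolyl isomerase group, and 0.20 for the sensors and Xbp1. The 10 genes whose promoter holds an ERSE, listed above with their sequences, had a median of 0.37 and ranged from 0.18 for Canx to 0.73 for Creld2. The 15 genes with a searched promoter and no exact match to any of the motifs had a median of 0.33, from 0.16 to 0.73. Lack of an exact match in the searched bases is not lack of an element. The median log2 fold changes with the antibody were -0.04 for genes with an ERSE match and -0.09 for genes without a match.

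**Figure D5:**
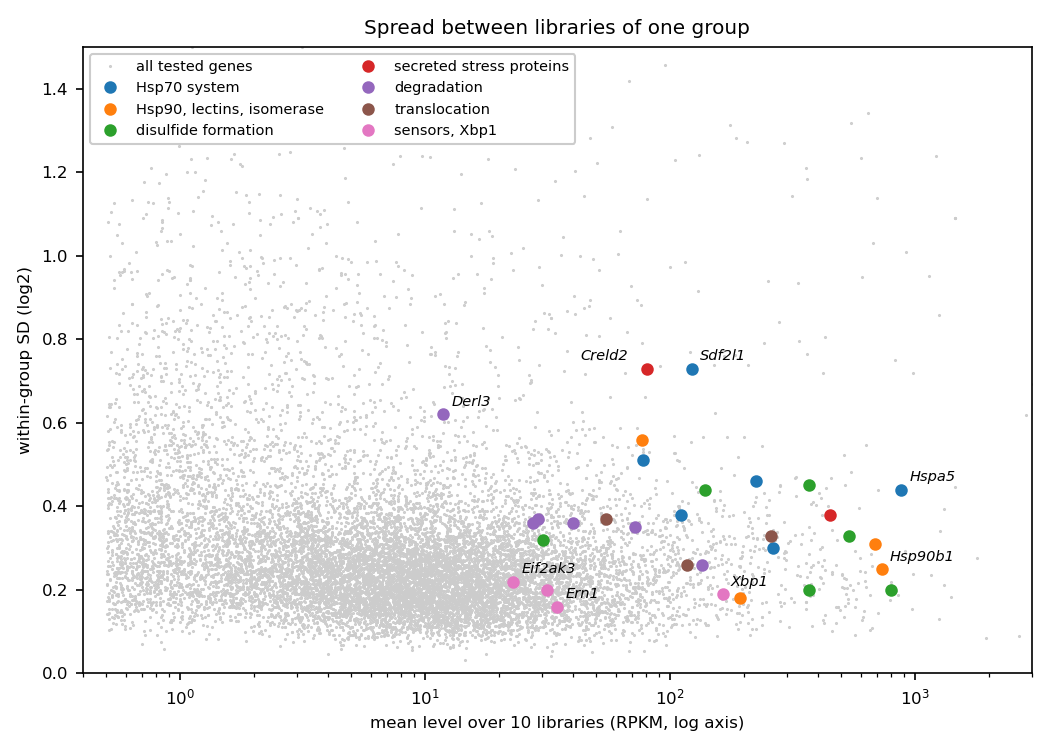
Grey points are all tested genes and coloured points the 31 genes by role; the horizontal axis is mean RPKM on a log axis and the vertical axis the within-group SD in log2 units. Creld2 and Sdf2l1 lie at 0.73 and Ern1 at 0.16; 66 tested genes fall outside the plotted range.

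Levels, which RPKM gives per length, placed several genes of the luminal folding machinery among the most abundant islet transcripts. Hspa5 ranked 44 of 24475 by mean RPKM over the 10 libraries, Pdia3 48, Hsp90b1 52 and Calr 56. The means of Hspa5 (877 RPKM), Pdia3 (800.3), Hsp90b1 (731) and Calr (683) follow each other in steps smaller than the SD of either neighbour within either group. Other folding genes ranked lower, with Dnajb11 at 688, Ppib at 700 and Ero1l at 2004. The degradation genes ran from 135 RPKM for Herpud1 (rank 386) to 11.8 RPKM for Derl3, and so overlapped these folding genes in level. The sensors Ern1, Atf6 and Eif2ak3 averaged 34.5, 31.4 and 22.8 RPKM.

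Other genes of ER function, 127 in 6 lists, were tested beside the 31. Of these, 0 passed the threshold in either direction, beside 0.409% of all tested genes. Their median log2 fold change was -0.08, beside -0.07 for all tested genes. In 103 of 127 (81.1%) it was below 0, beside 66.5% of all tested genes. Whether that count depends on scaling or on single libraries was not tested. Among other chaperones and disulfide enzymes (24 genes, median -0.04), Txndc12, a thioredoxin-like ER protein, was at 45.5, 45.1, 49.7, 46.2 and 46.5 RPKM in antibody libraries. Its isotype values were 40.6, 36.1, 42.3, 41.9 and 37.8 RPKM, each below every antibody value (log2 fold change 0.23, SE 0.09; limma adjusted p = 0.598). It was the 1 gene of the 127 whose groups did not overlap (exact permutation p = 0.00794, the lowest possible with these group sizes), where 1.99% of all tested genes did so. Ppic, a cyclophilin, had a log2 fold change of -0.62 (SE 0.31), Hspa13, an ER-associated Hsp70 relative, -0.30 (SE 0.20) and Txndc11 -0.22 (SE 0.16). With 1 library left out Ppic ran from -0.88 without isotype replicate 6 to -0.40 without isotype replicate 10.

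In the degradation list (22 genes, median -0.13), Erlec1, a lectin that recognises trimmed glycans, averaged 43.3 ± 5.65 RPKM in antibody libraries and 34.1 ± 5.57 RPKM in isotype libraries (SD, n = 5 each). On the log2 scale it differed by 0.35 (SE 0.13), short of the threshold (limma adjusted p = 0.594). Derl1, a derlin of the exit channel, had -0.29 (SE 0.16), Fam8a1 -0.18 (SE 0.10) and Herpud2 -0.17 (SE 0.11). In the list of targeting and signal peptide genes (22 genes, median -0.08), the signal recognition particle gene Srp54a had -0.68 (SE 0.28, limma adjusted p = 0.654), with isotype replicate 7 at 73.6 RPKM and the other isotype libraries between 22.8 and 42.1 RPKM. Srp54a has near-identical copies in the mouse genome, so its value as a single gene is uncertain. The other named genes of that list were Ssr4 (0.28, SE 0.20), Spcs2 (-0.28, SE 0.15) and Srp68 (-0.18, SE 0.11). Ssr4 was 0.11 without isotype replicate 6, and Srp54a was -0.45 without isotype replicate 7.

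Among stress factors outside the 31 genes (18 genes, median -0.11), Ppp1r15b, a phosphatase subunit that reverses eIF2 alpha phosphorylation, stood at 18.1 ± 1.21 RPKM in antibody libraries and 21.3 ± 2.61 RPKM in isotype libraries (SD, n = 5 each). On the log2 scale it differed by -0.22 (SE 0.11; limma adjusted p = 0.725). Trib3, an ATF4 and CHOP target, had -0.44 (SE 0.27), the cell death gene Bak1 0.38 (SE 0.23) and Wfs1, the Wolfram syndrome ER protein, -0.23 (SE 0.15). Without antibody replicate 5 Trib3 was -0.20 and Bak1 0.24; with other single libraries left out they reached -0.59 and 0.54. In the N-glycan list (16 genes, median -0.05) Magt1 and Mlec had -0.27 and -0.26 (SE 0.17 and 0.18), Uggt2 0.19 (SE 0.18) and Ganab -0.16 (SE 0.15), of which Uggt2 was 0.06 and Mlec -0.11 without antibody replicate 5. In the transport list (25 genes, median -0.09) the coat GTPase genes Sar1b and Sar1a had -0.26 and -0.24 (SE 0.16 each), Arfgap3 -0.21 (SE 0.15) and Preb -0.25 (SE 0.20). The library order of the 31 genes was seen in this set too. Isotype replicate 10 was the highest of its group in 78 of 127, beside 39.1% of all tested genes. Isotype replicate 6 was the lowest in 85 of 127, beside 34.7%. Antibody replicate 1 was the highest of its group in 61 of 127, beside 22.7% of all tested genes. Antibody replicate 5 was the lowest in 65 of 127, beside 35.8%.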

How the data were processed

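The authors deposited RPKM values for 24475 genes, with Entrez identifiers and symbols, in 10 libraries. Per the labels' protocols, islets were isolated on a density gradient and Nextera XT libraries were made, a kit that does not mark strand. The submitters' processing notes name GRCm38, mm10, CASAVA 1.8.2 and FastQC; no source used here names the aligner, counter or annotation. Of the 31 genes, Hspa5 shares 1921 bases with Rabepk (mean 4.12 RPKM) and Syvn1 89 bases with Mrpl49 (11.3 RPKM), whose reads cannot be told apart without strand. Several more of the 31 overlap other genes, among them Ppib with Snx22 (1456 bases, 0.0267 RPKM) and Pdia3 with Catsper2 (697 bases, 1.44 RPKM).

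The deposited RPKM were taken as they are, put on the scale log2(RPKM + 0.5), limited to genes that averaged 0.5 RPKM or more and tested with limma 3.58.1 (R 4.3.3, variance trend), a step tested on simulated data. No pair of libraries held identical values. Depth was the number of reads that makes the most low values whole within 0.1 (71.2% to 75.5% per library), for 15431 genes with 1 RefSeq-linked transcript in the GENCODE annotation; since reads were not recovered for all genes, no count model was run. Exact permutation tests were two-sided. Promoter sequences are from RefSeq, and motifs and plots used Python 3.11.15 with pandas 2.3.3 and matplotlib 3.10.9.

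All 31 genes are named, and of each other ER list every called gene and up to 4 with the smallest p. The genes and lists were chosen with earlier results of these data known. Alternatives were pseudocounts of 0.1 and 1, no filter or a mean of 5 RPKM, other scalings and variance models, an acinar covariate, exact permutation, and libraries left out; scaling without Ins1, Ins2 and Gcg was added after seeing the data.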

Additional observations from a re-analysis of the deposited data

Results flagged for a closer look

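In 9 of 110 groups of 5 libraries (55 named genes, both groups), 1 library stood apart from the others by Dixon's criterion. Chance flags about 1 in 20 groups where values are normal and groups independent. These genes share their libraries and RPKM were used without logs, so 9 of 110 cannot be read against that rate. Among the 31 genes these were Sec61b in antibody replicate 5 (140.1 RPKM, nearest 270.1), Dnajc3 in isotype replicate 10 (169 RPKM, nearest 108) and Calr in isotype replicate 6 (412 RPKM, nearest 676). Among the other ER genes Ssr4 stood apart low in antibody replicate 5 (345 RPKM, nearest 518) and in isotype replicate 6 (249 RPKM, nearest 427). Ppp1r15b was low in antibody replicate 5 (16.0 RPKM, nearest 18.5). Ppic was high in antibody replicate 2 (5.15 RPKM, nearest 3.08), Srp54a in antibody replicate 1 (38.8 RPKM, nearest 23.8) and Magt1 in isotype replicate 10 (108 RPKM, nearest 74.4).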

How the results depend on the processing

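In every alternative run with limma, 0 of the 31 genes and 0 of the 127 other ER genes passed in either direction, and the lowest adjusted p was 0.184 (limma with array weights) among the 31. Over the whole table, 53 genes were called higher and 2 lower. The higher count was 23 at a mean of at least 5 RPKM, 121 with array weights, 0 by exact permutation (whose smallest p, 0.00794, is too large to pass adjustment over this many genes unless a large share of them reach it, so that it says nothing of stability), and 31 to 50 with 1 library left out. The lower count was 1 with no filter and with no variance trend, 0 at 5 RPKM and by exact permutation, 61 with array weights, and 5 with quantile normalization, the acinar covariate or without antibody replicate 5 and isotype replicate 10. With 1 library left out it was lowest, 0, without antibody replicate 1, and highest, 20, without isotype replicate 6. The median of the 31 genes, -0.09, became -0.24 with the acinar covariate, 0.10 without antibody replicate 5 and isotype replicate 10, and -0.24 to 0.00 with 1 library left out. The log2 fold change took the opposite sign without antibody replicate 5 and isotype replicate 10: Hspa5 0.10, Hyou1 0.03, Dnajb11 0.18, Dnajc3 0.08, Sdf2l1 0.28, P4hb 0.21, Pdia4 0.14, Pdia6 0.25, Manf 0.10, Edem2 0.14, Syvn1 0.02, Sec61b 0.13, Ssr1 0.22, Ern1 0.05. With array weights it did so for Sdf2l1 0.06, P4hb 0.09, Pdia4 0.07, Pdia6 0.16, Manf 0.08, Edem2 0.08, Sec61b 0.07, Ssr1 0.05. With median centring it did so for P4hb 0.06, Pdia4 0.04, Pdia6 0.04, Manf 0.07, Edem2 0.04, Syvn1 0.03, Ssr1 0.04, Atf6 0.01, Ern1 0.03. With trimmed mean scaling it did so for P4hb 0.05, Pdia4 0.02, Pdia6 0.02, Manf 0.05, Edem2 0.02, Syvn1 0.02, Ssr1 0.02, Ern1 0.01. With quantile normalization it did so for Edem2 0.01, Syvn1 0.03, Ssr1 0.02, Ern1 0.01. With the acinar covariate it did so for Ppib -0.11, Creld2 -0.28. With scaling without Ins1, Ins2 and Gcg, chosen after seeing the data, it did so for Pdia3 -0.04, Creld2 -0.07. With 1 library or that pair left out, the genes whose sign turned ranged as follows: Hspa5 -0.33 to 0.10, Hyou1 -0.40 to 0.03, Dnajb11 -0.33 to 0.18, Dnajc3 -0.31 to 0.08, Sdf2l1 -0.46 to 0.28, Ppib -0.11 to 0.42, P4hb -0.12 to 0.21, Pdia3 -0.04 to 0.15, Pdia4 -0.19 to 0.14, Pdia6 -0.18 to 0.25, Manf -0.14 to 0.16, Creld2 -0.24 to 0.49, Edem2 -0.17 to 0.14, Syvn1 -0.22 to 0.08, Sec61b -0.18 to 0.13, Ssr1 -0.13 to 0.22, Ern1 -0.10 to 0.05. The cause was not tested. No paired analysis was possible because the groups share no replicate numbers. The other named ER genes kept their sign in all alternatives run for them. The number of libraries limits the precision, and what depth limits was not tested.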
